A study of Mus musculus with 54 samples.

Results

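Of the 54 RNA sequencing libraries of the study, 6 are described here, namely the 3 of M2-like mock and the 3 of M0 mock macrophages, chosen by their labels and compared to see what was left of the IL-4 state 48 h after mock transfection. Peritoneal exudate cells were taken from C57BL/6 mice of 8 to 20 weeks, 4 days after injection of thioglycolate, and the adherent cells were used. M2-like macrophages had been kept with 10 ng/ml IL-4 for 24 h and M0 macrophages had not been given a cytokine. Both groups then received the DharmaFECT 4 transfection reagent without siRNA, and the study's methods state that the culture that followed held no IL-4. For comparison, 6 libraries of untransfected M2-like and M0 macrophages from the same reprogramming experiment and 12 libraries of M2-like and M0 macrophages harvested directly after the 24 h of polarization (3 mice, 2 technical replicates each) were used. The harvest time of the untransfected cells is not given separately in the sources used here. For RNA extraction, the study's methods name 3 biological replicates of M0 and M2-like macrophages. Neither labels nor methods say whether the 3 replicates of a reprogramming condition came from separate mice or cultures. The p-values of that experiment therefore measure the spread between libraries, which was estimated over all 36 of its libraries.

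IL-4 binds a receptor that holds the Il4ra chain, the kinases bound to it phosphorylate the transcription factor STAT6, and STAT6 switches on the genes of alternative activation. In the mouse these include Chil3 and Retnla, which code for the secreted lectin Ym1 and the secreted protein RELMα, Mrc1, which codes for the mannose receptor, and Arg1, which codes for the arginase that turns arginine into ornithine. Such macrophages are known from helminth infection, wound repair and fat tissue.

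The 6 libraries held 14959343 to 19704195 reads assigned to genes. Expression is given as CPM, the read count as a share of the library's size after scaling with TMM, a factor that makes the libraries comparable. The 16 macrophage genes used as a check of the cell type (Csf1r, Adgre1 and others) summed to 17019 to 19198 CPM in M0 mock and 18199 to 19566 CPM in M2-like mock, and 0 of them were higher and 1, Cd14, was lower. Neutrophil genes summed to 19.1 to 35.1 CPM in M0 mock and 23.6 to 28.7 CPM in M2-like mock, with S100a9, Ly6g, Mpo and Ngp at 0 reads in all 6 libraries. Eosinophil genes summed to 9.60 to 12.8 CPM in M0 mock and 19.0 to 20.2 CPM in M2-like mock without overlap, of which Siglecf, the 1 member tested, was higher (0.79 ± 0.21, adjusted p = 0.0288, and 0.112 without M0 mock replicate 3), and Epx, Prg2 and Prg3 were at 0 reads. Monocyte genes without Chil3 summed to 8.201 to 11.7 CPM and 9.76 to 16.7 CPM, with Ccr2 higher. B cell genes summed to 28.9 to 92.4 CPM in M0 mock, highest in replicate 2, and 17.8 to 36.6 CPM in M2-like mock, and T and NK cell genes to 1.12 to 9.94 CPM and 1.33 to 1.79 CPM. Genes of mesothelial cells and fibroblasts summed to 206 to 327 CPM and 188 to 306 CPM. Because RNA of all adherent cells was sequenced together, fewer cells that express a gene and less RNA per cell cannot be told apart.

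Of 14172 genes tested, 311 had higher expression (2.19%) and 232 had lower expression (1.64%) in M2-like mock than in M0 mock. Genes were called by a two-sided quasi-likelihood test in edgeR at an adjusted p-value under 0.05, where the p-values of all genes tested were adjusted by Benjamini-Hochberg. Most differences were small, and 54 of the higher and 26 of the lower genes changed at least 2-fold. The higher genes included alternative activation genes, MHC class II genes and some genes of lipid handling. Among the lower genes were Tnf, Nlrp3, Clec4e and other genes of the inflammatory response.

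Of 37 alternative activation genes, 33 were tested, 14 were higher in M2-like mock, 2 were lower and 17 did not pass the test, and the median log2 fold change of the 33 was 0.44, compared with -0.0035 over all genes tested. Chil3 (chr3:106147554-106167564, GRCm38) had 2.17, 2.90 and 2.68 CPM in the 3 M0 mock libraries and 950.1, 910.4 and 687 CPM in the 3 M2-like mock libraries. That is 325-fold higher (log2 fold change 8.34 ± 0.24 SE, adjusted p = 1.41e-22). Retnla was at 1.40, 2.42 and 1.11 CPM in M0 mock and at 248, 480.0 and 140.4 CPM in M2-like mock (log2 fold change 7.41 ± 0.71, adjusted p = 1.18e-08). For both genes the lowest M2-like library lay far above the highest M0 library, whereas the 3 M2-like libraries themselves differed more for Retnla than for Chil3. The ribonuclease gene Ear2 had 0, 1 and 2 reads in M0 mock and 161, 150 and 114 reads in M2-like mock, a ratio of 154 (95% exact interval 52.5 to 752, counting error only). Its relative Rnase2a had 0 reads in the 3 M0 mock libraries and 17, 31 and 14 reads in M2-like mock, which is at least 22.5-fold higher when 3 reads over the group are taken as the floor. Ear2 and Rnase2a belong to a family of very similar genes, as do Chil3 and Chil4, and how reads that map to several genes were counted is not stated in the sources used here, so the split between such relatives is uncertain. Chil4 itself had 0, 0 and 0 reads in M0 mock and 2, 5 and 0 reads in M2-like mock.

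The stretch before the start of Retnla is shown because it carries the spacing of bases that STAT6 is known to prefer, TTCNNNNGAA, which reads the same on both strands. Of 32851 promoter windows of RefSeq (GRCm38.p6, 250 bases before to 50 bases after a gene's start), 2284 hold it (6.95%). Of the genes higher in mock, 229 had a window and 23 of these hold it. Of the alternative activation genes 28 had a window and 7 of these hold it. Retnla, Pdcd1lg2 and Clec7a among the 7 were higher in mock and Il1rn was lower. Itgax and Tfec did not pass the test, and Ccl17 was not tested. The windows of Retnla (chr16:48842424-48842503, plus strand) and of Pdcd1lg2 (chr19:29410797-29410876, plus strand), another gene that was higher, are given with the match in capitals, which starts 145 and 82 bases before the gene's start in RefSeq. The start of Retnla in GENCODE lies upstream of that in RefSeq. The window of Chil3 does not hold these letters.
Retnla: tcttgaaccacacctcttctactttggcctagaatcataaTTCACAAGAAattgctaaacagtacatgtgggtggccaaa
Pdcd1lg2: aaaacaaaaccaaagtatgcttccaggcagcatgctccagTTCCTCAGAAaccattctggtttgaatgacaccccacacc

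Surface and signalling genes of the IL-4 response were higher by less. Mgl2, which codes for a lectin of the cell surface, had 1.47, 1.45 and 1.44 CPM in M0 mock and 12.9, 15.8 and 10.2 CPM in M2-like mock (log2 fold change 3.15 ± 0.30, adjusted p = 1.18e-08). Pdcd1lg2, which codes for the PD-1 ligand PD-L2, was at 0.280, 0.967 and 0.327 CPM in M0 mock and 2.11, 3.44 and 1.46 CPM in M2-like mock (2.07 ± 0.46, adjusted p = 0.00727). Cish, a feedback inhibitor of cytokine receptors, was at 0.832, 0.491 and 0.279 CPM in M2-like mock and at most 0.196 CPM in M0 mock (2.59 ± 0.65, adjusted p = 0.0197). The groups did not overlap for any of these genes, but Cish rests on few reads and did not pass without M0 mock replicate 1 or 2 or M2-like mock replicate 1, nor did Pdcd1lg2 without M2-like mock replicate 2. Mrc1 had 167, 152 and 211 CPM in M0 mock and 334, 363 and 272 CPM in M2-like mock (0.87 ± 0.14, adjusted p = 0.000171). The arginine transporter gene Slc7a2 differed by 0.97 ± 0.18 (adjusted p = 0.00123), the prostaglandin synthase gene Ptgs1 by 0.96 ± 0.12 (adjusted p = 1.97e-06), the transcription factor gene Batf3 by 0.94 ± 0.18 (adjusted p = 0.00133) and the VEGF receptor gene Flt1 by 1.81 ± 0.28 (adjusted p = 0.000125), each without overlap of the libraries. Tgm2 (transglutaminase, 0.42) and Clec7a (the β-glucan receptor Dectin-1, 0.32) were the other higher members. Tgm2 did not pass without M0 mock replicate 1 or 2 or M2-like mock replicate 1 or 2, and Clec7a did not without M0 mock replicate 3 or M2-like mock replicate 2.

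**Figure D1:**
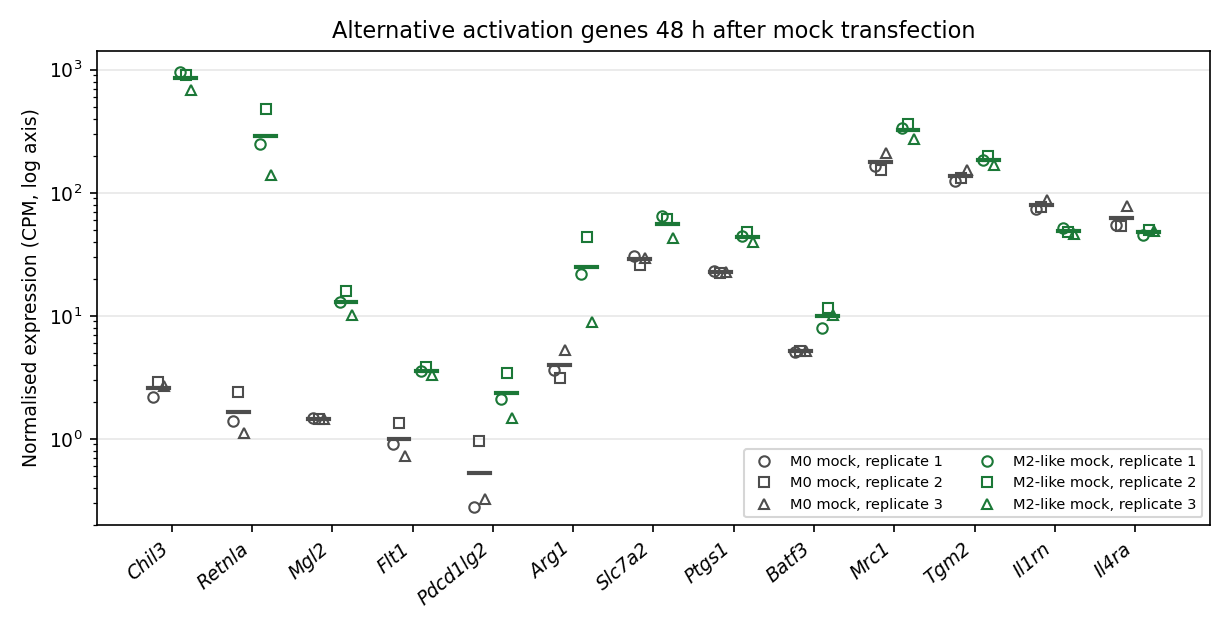
Normalised expression (CPM, log axis) of 13 alternative activation genes in each of the 3 M0 mock (grey) and 3 M2-like mock (green) libraries, with the replicate as the symbol and the group mean as the line. Chil3 and Retnla are separated by about 2 orders of magnitude, Arg1 spreads from 8.92 to 44.0 CPM within M2-like mock, and Il1rn and Il4ra are lower in M2-like mock.

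Arg1 did not pass the test. It was at 3.64, 3.12 and 5.23 CPM in M0 mock and 21.9, 44.0 and 8.92 CPM in M2-like mock, so that the groups did not overlap, but with a log2 fold change of 2.65 ± 0.88 the adjusted p was 0.0912. With DESeq2, and without M2-like mock replicate 3, it passed the test. Neither did Irf4, the transcription factor that acts with STAT6 (0.44 ± 0.22, adjusted p = 0.281), nor Socs1, an inhibitor of cytokine signalling (-0.63 ± 0.33, adjusted p = 0.319). The 14 remaining members that did not pass were Clec10a, Cd209a, Ccl22, Ccl24, Tfec, Egr2, Socs2, Ch25h, Alox15, Matk, Fn1, F13a1, Klf4 and Itgax, with log2 fold changes of -0.45 to 2.18. Ccl17, Cdh1 and Il31ra had too few reads to be tested, like Chil4. The 2 lower members were Il1rn, which codes for the interleukin-1 receptor antagonist (73.5, 77.0 and 87.7 CPM in M0 mock and 51.6, 47.96 and 45.8 CPM in M2-like mock, -0.71 ± 0.17, adjusted p = 0.0120), and Il4ra (-0.38 ± 0.09, adjusted p = 0.0180). Without M0 mock replicate 3, the adjusted p of Il1rn was 0.05003 and that of Il4ra 0.202, while Tfec (0.49, adjusted p = 0.0158) passed the test. Il1rn also did not pass without M2-like mock replicate 2, nor Il4ra without M2-like mock replicate 1.

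At 24 h, before any transfection, 32 of the 37 alternative activation genes were higher in M2-like than in M0 macrophages and 2 were lower, with a median log2 fold change of 3.07. There, 2176 of 16110 genes tested were higher (13.5%) and 2323 were lower (14.4%). All 14 members that were higher in mock were also higher at 24 h. In a model over both experiments, the log2 fold change of M2-like against M0 was lower in mock than at 24 h for 20 of the list's genes and higher for 2, and over all 15835 genes tested it was lower for 679 (4.29%) and higher for 639 (4.04%). The 2 experiments were sequenced at different facilities and read lengths, so time, removal of IL-4, the reagent and the experiment cannot be told apart in this difference. For Arg1 the 3 mice had 524, 414 and 474 CPM in M2-like macrophages at 24 h, compared with 21.9, 44.0 and 8.92 CPM 48 h after mock (difference of the log2 fold changes -3.79 ± 1.20, adjusted p = 0.0424). Irf4 was at 50.3, 45.5 and 42.6 CPM in M2-like macrophages at 24 h and 7.75, 7.64 and 5.44 CPM in M2-like mock, while M0 macrophages were at 4.31 to 6.02 CPM in both experiments (-2.77 ± 0.26, adjusted p = 1.79e-09). Cish (-4.01), Socs1 (-4.16), Pdcd1lg2 (-3.60), Mgl2 (-3.05), Slc7a2 (-2.13) and Ptgs1 (-1.76) also had smaller differences in mock. The 2 members with a larger difference in mock were Retnla (4.09 ± 0.81, adjusted p = 0.000836) and Ear2 (2.62 ± 0.86, adjusted p = 0.0492). For Retnla, the M2-like levels of the 2 experiments overlapped (192 to 276 CPM at 24 h and 140.4 to 480.0 CPM in mock), and M0 macrophages were at 22.0 to 25.7 CPM at 24 h and at 1.11 to 2.42 CPM in M0 mock. For Chil3 the difference of the log2 fold changes did not pass the test (adjusted p = 0.533), with levels of 5078 to 6508 CPM in M2-like and 11.5 to 17.8 CPM in M0 macrophages at 24 h.

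Several MHC class II genes were higher in M2-like mock. The genes of this group code for the 2 chains that present peptides to CD4 T cells (H2-Aa, H2-Ab1, H2-Eb1), for the invariant chain Cd74 and the exchange proteins H2-DMa and H2-DMb1 that load the peptides, and for the activator Ciita that switches the group on. Of 12 tested, 7 were higher in M2-like mock and 0 were lower, with a median log2 fold change of 0.66. H2-Aa was at 166, 165 and 166 CPM in M0 mock and 474, 522 and 387 CPM in M2-like mock (1.48 ± 0.13, adjusted p = 1.98e-09). H2-Ab1 was at 285, 329 and 272 CPM and at 681, 758 and 759.7 CPM (1.31 ± 0.11, adjusted p = 1.92e-09). For Ciita the values were 13.9, 13.9 and 12.48 CPM and 30.7, 32.6 and 33.5 CPM (1.26 ± 0.14, adjusted p = 5.41e-07). Cd74 (1.42) and H2-Eb1 (1.40) differed by about as much, and H2-DMa (0.66) and H2-DMb1 (0.67) by less. In each of these 7 genes the 3 M2-like libraries lay above the 3 M0 libraries. Over all 14172 genes tested, 2433 had no overlap in either direction. The 5 others, Ctss, Rfx5, H2-Oa, H2-Ob and H2-DMb2, did not pass the test. H2-Oa, H2-Ob and H2-DMb2 were at 6.50 CPM or less in all 6 libraries.

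Of 8 genes of B cells, which also express MHC class II, 0 were higher and 0 lower, with a median log2 fold change of -1.17. Dendritic cell genes summed to 8.43 to 9.94 CPM in M0 mock and 13.4 to 18.6 CPM in M2-like mock. Of 6 tested, 3 had a positive log2 fold change, and 2, Batf3 and Zbtb46, were higher. Batf3 is also in the list of alternative activation genes. It is part of these sums, with a mean of 5.14 CPM in M0 mock and 9.89 CPM in M2-like mock. Flt3, Xcr1 and Siglech had too few reads to be tested. The part of other cell types in the MHC class II result was not tested.

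The promoters of H2-Aa (chr17:34287837-34287914, minus strand) and H2-Eb1 (chr17:34305765-34305842, plus strand) are shown because they hold the Y box, CTGATTGG, a conserved element of MHC class II promoters. Of the 32851 windows, 1346 hold it on either strand (4.10%), and of 9 MHC class II genes with a window 3 hold it, H2-Aa, H2-Eb1 and H2-Oa. The capitals mark it, 51 and 62 bases before the start of H2-Aa and H2-Eb1, respectively.
H2-Aa: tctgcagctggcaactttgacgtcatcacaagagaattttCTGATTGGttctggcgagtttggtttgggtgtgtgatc
H2-Eb1: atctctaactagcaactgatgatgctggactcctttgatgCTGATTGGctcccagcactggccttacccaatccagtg

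**Figure D2:**
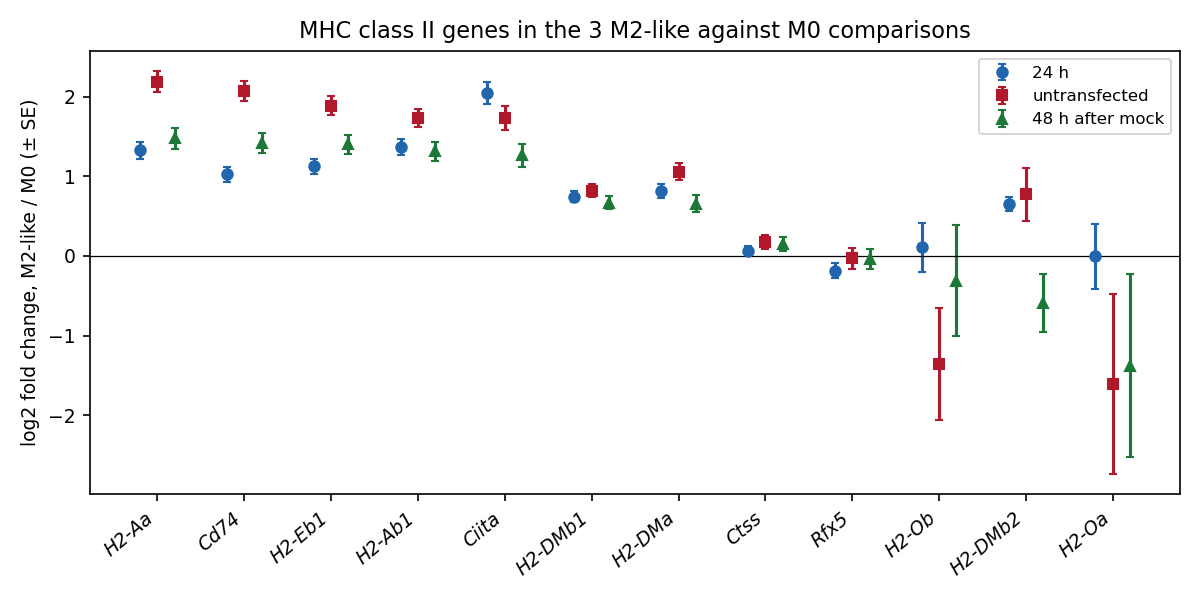
Log2 fold change (± SE) of the 12 MHC class II genes in M2-like against M0 macrophages at 24 h (blue), untransfected (red) and 48 h after mock (green). H2-Aa, Cd74, H2-Eb1, H2-Ab1, Ciita, H2-DMb1 and H2-DMa are above 0 in all 3 comparisons, and H2-Oa and H2-Ob have wide errors at low levels.

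The same 7 MHC class II genes were higher at 24 h. The log2 fold changes in mock and at 24 h did not pass the test of their difference for H2-Aa (1.48 in mock and 1.32 at 24 h, adjusted p of the difference = 0.776), H2-Ab1 (1.31 and 1.37, adjusted p = 0.892), H2-Eb1 (1.40 and 1.12, adjusted p = 0.391) or Cd74 (1.42 and 1.02, adjusted p = 0.192). The value in mock was lower for Ciita (1.26 and 2.04, adjusted p = 0.0107).

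Several genes of lipid handling were higher in M2-like mock. Of 23 tested, 6 were higher and 1 was lower, with a median log2 fold change of 0.16. The scavenger receptor gene Cd36 was at 1444, 1509 and 1524 CPM in M0 mock and 2439.6, 2938 and 1955 CPM in M2-like mock (0.71 ± 0.13, adjusted p = 0.000607). Lipoprotein lipase, Lpl, was higher by 0.71 ± 0.13 (adjusted p = 0.000962), the β-oxidation genes Hadha by 0.43 ± 0.05 (adjusted p = 3.58e-06), Hadhb by 0.60 ± 0.17 (adjusted p = 0.0361) and Acadm by 0.24 ± 0.06 (adjusted p = 0.0251), and the nuclear receptor gene Pparg by 0.39 ± 0.08 (adjusted p = 0.00335). The nuclear receptor gene Ppard was lower (-0.38 ± 0.11, adjusted p = 0.0474). Outside this list, the desaturase gene Scd1 had 26.6, 21.6 and 33.4 CPM in M0 mock and 80.8, 73.2 and 90.0 CPM in M2-like mock (1.58 ± 0.20, adjusted p = 4.76e-06), although it did not pass the test at 24 h. The cholesterol exporter genes Abca1 (0.60) and Abcg1 (0.36) were higher. Of 24 genes of cholesterol synthesis 1, Hmgcs1 (0.42), was higher and 0 were lower, near the shares over all genes tested (2.19% and 1.64%). Acadm, Hmgcs1, Abca1 and Abcg1 each failed the test without some of M0 mock replicates 1 and 2 and the M2-like mock replicates. Hadhb failed it without M0 mock replicate 2 or 3 or M2-like mock replicate 2 or 3, and Ppard without M0 mock replicate 2 or 3 or M2-like mock replicate 1 or 2.

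Of 22 genes of iron handling and the Nrf2 response, 1, Tfrc, was higher and 1, Slc11a2, was lower, with a median log2 fold change of -0.10. These counts are near the shares over all genes tested (2.19% higher and 1.64% lower). The transferrin receptor gene Tfrc was at 183, 159.9 and 171 CPM in M0 mock and 367, 349 and 342 CPM in M2-like mock (1.04 ± 0.09, adjusted p = 8.41e-10), and Trf, which codes for transferrin and is not in this list, was higher by 1.15 ± 0.14 (adjusted p = 9.97e-07). Slc11a2, which codes for an iron transporter, was lower by 0.30 on the log2 scale (-0.30 ± 0.06, adjusted p = 0.00323). Lrrc32, which codes for the TGF-β docking receptor GARP, was at 4.63, 8.97 and 4.38 CPM and at 17.7, 22.8 and 15.3 CPM (1.61 ± 0.25, adjusted p = 0.000146). The organic anion transporter gene Slco2b1 (1.19), the platelet factor Pf4 (1.25), Bex1 (1.20), Vsig8 (1.26) and the signalling scaffold gene Ksr2 (1.09) were higher too. Among further genes that had been among the largest changes at 24 h, Tmem26 (1.04 ± 0.15, adjusted p = 3.43e-05) and the collagenase gene Mmp13 (0.79 ± 0.16, adjusted p = 0.00321) were still higher. Further genes that were higher were the chemokine gene Ccl9 (1.02), the chemokine receptor gene Ccr2 (1.20), the interleukin-36 receptor gene Il1rl2 (1.20), the phosphatase gene Acp5 (0.89), the growth factor gene Igf1 (0.53), the elastase gene Mmp12 (0.42), the cathepsin gene Ctsl (0.41) and the leukotriene C4 synthase gene Ltc4s (1.42). The 3 M2-like libraries lay above the 3 M0 libraries in each of these genes except Igf1. Ccr2, Igf1, Mmp12, Ctsl and Ltc4s each failed the test without some single libraries.

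Genes of the inflammatory and early response were lower in M2-like mock, as were some receptor genes. Adra1a, an adrenergic receptor gene, was at 26.3, 27.3 and 28.9 CPM in M0 mock and 11.01, 9.39 and 11.5 CPM in M2-like mock (-1.37 ± 0.15, adjusted p = 1.46e-07). Tnf was at 20.4, 17.7 and 22.3 CPM and at 10.1, 8.97 and 9.41 CPM (-1.08 ± 0.20, adjusted p = 0.00118). Nlrp3, which codes for the sensor of the inflammasome, was at 34.8, 37.8 and 32.5 CPM and at 14.8, 18.9 and 17.6 CPM (-1.04 ± 0.14, adjusted p = 1.16e-05). In these genes the M0 libraries were close to each other. The groups did not overlap, which was a condition for being named among the 15 largest falls. Csrnp1, a nuclear protein induced early by many signals, was lower by 1.15 (-1.15 ± 0.15, adjusted p = 9.34e-06), the immediate early genes Egr1 by 0.93 (-0.93 ± 0.19, adjusted p = 0.00267) and Dusp1 by 0.79 (-0.79 ± 0.15, adjusted p = 0.00118), and the cytokine gene Osm by 1.24 (-1.24 ± 0.23, adjusted p = 0.000962). In untransfected cells Tnf (-0.14, adjusted p = 0.730), Nlrp3 (-0.06, adjusted p = 0.816), Csrnp1 (0.27, adjusted p = 0.288) and Egr1 (0.27, adjusted p = 0.381) did not pass the test. Adra1a was lower there as well (-0.69, adjusted p = 0.00204). Mean CPM of Tnf was 7.75 in untransfected M0 and 20.1 in M0 mock, and 7.08 and 9.5 in M2-like macrophages. Of 22 immediate early genes 5 were lower, Egr1, Dusp1, Fosl2, Ier2 and Klf6, and 1, Atf3 (0.38), was higher, with a median log2 fold change of -0.19. Without M0 mock replicate 1, M2-like mock replicate 1 or M2-like mock replicate 2, 3 were lower, and in a model of the 6 libraries alone 1 was lower. Of 20 genes of inflammatory mediators 3 were lower, Tnf, Nfkbiz and Acod1, and 0 were higher, with a median of -0.40. Without M0 mock replicate 3, 1 of these 3, Tnf, passed the test, and Atf3 did not.

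M0 mock replicate 3 stood apart in part of these decreases. Socs3, a feedback inhibitor of the IL-6 family of cytokines, was at 9.11, 10.6 and 82.95 CPM in M0 mock and 6.34, 7.29 and 6.69 CPM in M2-like mock. Its log2 fold change of -2.33 ± 0.49 (adjusted p = 0.00393) was -0.55 without this library (adjusted p = 0.310). Clec4e, which codes for the receptor Mincle, was at 20.3, 18.4 and 45.5 CPM and at 7.62, 10.2 and 7.46 CPM (-1.73 ± 0.30, adjusted p = 0.000457), and -1.20 without the library (adjusted p = 0.0119). Stab1, a scavenger receptor gene, was at 102, 136 and 205 CPM and at 35.1, 56.5 and 64.1 CPM (-1.51 ± 0.25, adjusted p = 0.000280). Stab1 and the membrane protease gene Mmp14 (-1.25) were lower also without replicate 3 (-1.20, adjusted p = 0.00513, and -0.91, adjusted p = 0.00815), whereas the chemokine genes Ccl4 (-1.06) and Cxcl16 (-0.67), the caspase gene Casp4 (-0.85) and Acod1 (-1.94), the enzyme that makes itaconate, did not pass the test without it (adjusted p = 0.485, 0.138, 0.122 and 0.511). Over all genes, 137 of the 232 lower genes and 208 of the 311 higher genes passed the test in the same direction without this library. It lay over 2-fold from both other M0 mock libraries in 5 of these lower and 5 of these higher genes. In total, 285 genes were higher and 234 lower without it, more than without M0 mock replicate 2 or M2-like mock replicate 1 or 2. What sets the library apart was not tested.

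**Figure D3:**
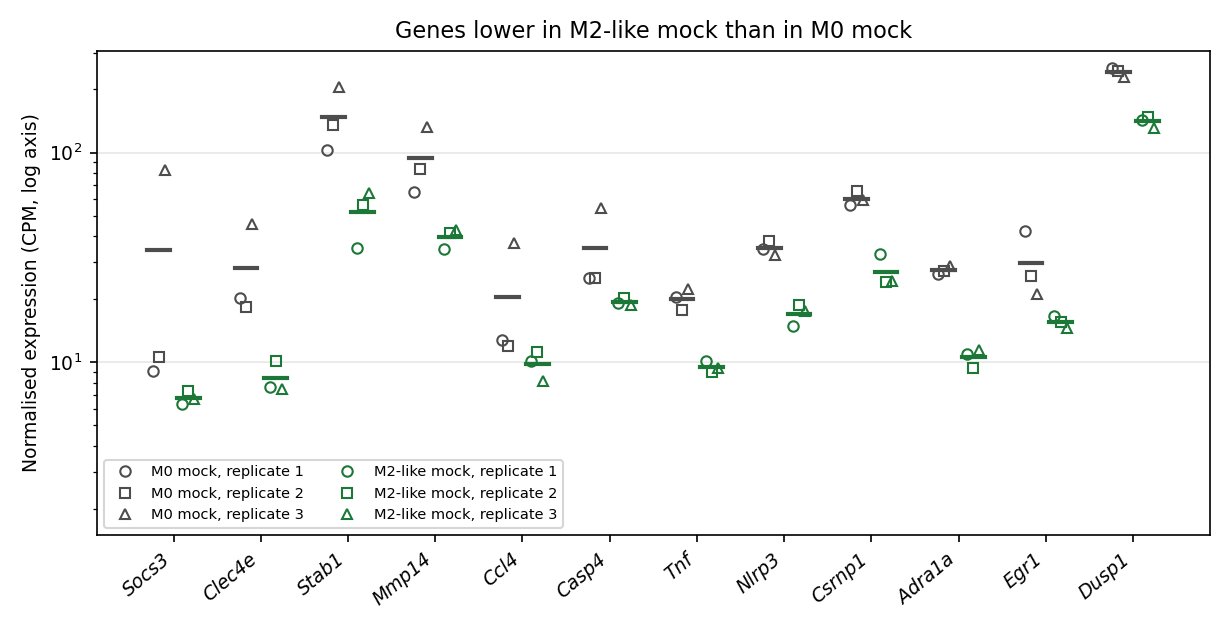
Normalised expression (CPM, log axis) of 12 genes that were lower in M2-like mock (green) than in M0 mock (grey), with the replicate as the symbol and the group mean as the line. M0 mock replicate 3 (grey triangles) lies above the other 2 M0 libraries for Socs3, Clec4e, Stab1, Mmp14, Ccl4 and Casp4 but not for Nlrp3, Csrnp1, Egr1 and Dusp1.

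The IL-4 receptor pathway itself was not higher. Of 19 genes of this pathway, 1, Cish, was higher and 5 were lower, Socs3, Irs2, Il4ra, Ptpn1 and Stat3, with a median log2 fold change of -0.07. Irs2, the adaptor that links the receptor to PI3 kinase, was at 55.1, 96.1 and 42.1 CPM in M0 mock and 41.9, 28.2 and 34.4 CPM in M2-like mock (-0.89 ± 0.21, adjusted p = 0.0120). Without M0 mock replicate 3, 1 of the 5, Irs2, passed the test, but Irs2 did not without M0 mock replicate 2 or M2-like mock replicate 2. Of the transcription factors that the study chose as regulators, Pparg was higher, and Stat6 (-0.04 ± 0.09, adjusted p = 0.879), Myc (-0.01 ± 0.15, adjusted p = 0.985), E2f1 (0.02 ± 0.10, adjusted p = 0.939) and Ctcf (0.10 ± 0.08, adjusted p = 0.544) did not pass the test. Other receptors and growth factor genes were lower, among them Tlr2 (-0.90 ± 0.20, adjusted p = 0.00798), the ligand of the efferocytosis receptors Gas6 (-0.85 ± 0.13, adjusted p = 0.000119), the integrin gene Itgb7 (-0.84 ± 0.13, adjusted p = 8.83e-05) and the TGF-β signalling inhibitor Smad7 (-0.71 ± 0.16, adjusted p = 0.00756). Tlr2 did not pass without M0 mock replicate 3 or M2-like mock replicate 1, and Smad7 did not without M0 mock replicate 2.

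Other gene groups are given with their counts of called genes. Over all genes tested, 13.5% were higher and 14.4% lower at 24 h, and 2.19% and 1.64% in mock. For lists of this size, a count of 0 or 1 in mock is near these shares. Of 28 genes of scavenger receptors and efferocytosis, 9 were higher and 7 lower at 24 h, and 5 were higher (Mrc1, Cd36, Clec7a, Clec4a2 and Clec4a3) and 4 lower (Stab1, Clec4d, Clec4e and Gas6) in mock, all 9 in the same direction as at 24 h. Of 25 genes of matrix remodelling, 7 were higher and 9 lower at 24 h, and 3 were higher (Mmp12, Mmp13 and Mmp19) and 3 lower (Mmp14, Plau and Emilin2) in mock. Without M0 mock replicate 3, these counts were 4 and 4, and 2 and 2. Of 22 genes of the unfolded protein response, 19 were higher at 24 h, and in mock 0 were higher and 0 lower, with a median log2 fold change of -0.09. Of 23 glycolysis genes 5 were higher and 8 lower at 24 h, and 0 and 0 in mock. Of 25 genes of the citrate cycle 17 were higher at 24 h and 1, Idh1 (0.29 ± 0.08, adjusted p = 0.0289), in mock. Of 39 interferon-stimulated genes 6 were higher and 5 lower at 24 h, near the shares over all genes, and 0 in either direction in mock. Their median log2 fold change in mock was nevertheless -0.35 (-0.10 without M0 mock replicate 3). In untransfected cells 12 of the 39 were lower and 0 higher, with a median of -0.47, where 9.19% of all genes tested were lower. Of 35 cell cycle genes 0 changed in mock.

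**Figure D4:**
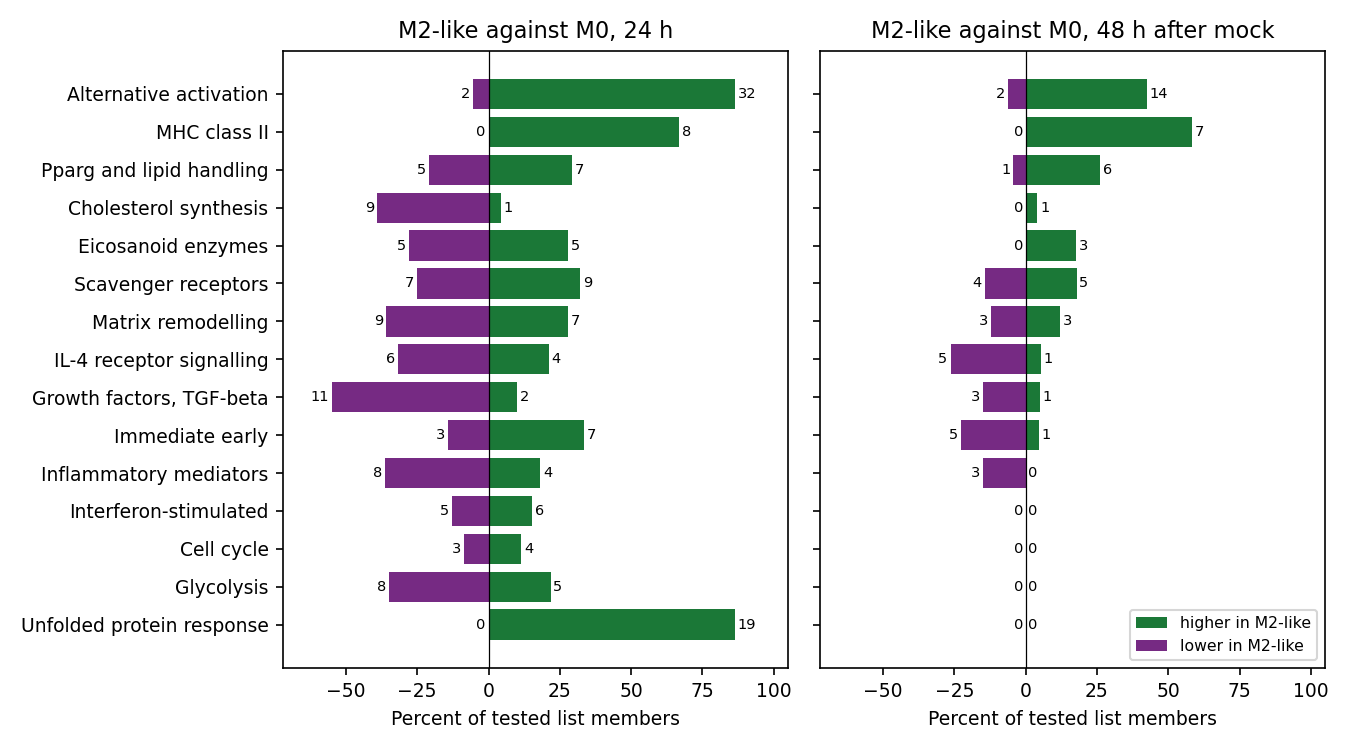
Percent of the tested members of 15 gene groups that were higher (green) or lower (purple) in M2-like than in M0 macrophages at 24 h (left) and 48 h after mock (right), with the number of genes at each bar. Alternative activation (14 higher) and MHC class II (7 higher) have the highest shares in mock, and the unfolded protein response goes from 19 higher genes to 0.

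Across all genes, 1976 of the 2176 genes that were higher at 24 h were also tested in the reprogramming experiment. In M2-like mock 170 of these (8.60%) were higher and 9 lower, compared with 2.19% and 1.64% over all genes tested. Of 2264 such genes that were lower at 24 h, 146 (6.45%) were lower and 17 higher. Called or not, 68.6% of the genes higher at 24 h and 69.7% of the genes lower at 24 h had the same sign in mock. In untransfected cells 19.1% and 19.4% were called in the same direction, compared with 10.7% higher and 9.19% lower over all genes tested. The median log2 fold change of the genes higher at 24 h was 0.37 at 24 h and 0.08 in mock, and that of the lower genes was -0.46 and -0.11. Of the 229 genes that were at least 2-fold higher at 24 h, 66 were higher in mock, and of 249 that were at least 2-fold lower, 33 were lower, with 0 in the opposite direction in both cases. Of the largest falls at 24 h, Stab1, Gas6, Sema4d (-0.36), Fmnl1 (-0.56) and Nav2 (-0.62) were lower in mock. Sema4d and Nav2 failed the test without some single libraries. Cdkn1c (-0.39, adjusted p = 0.233), Padi4 (-0.38, adjusted p = 0.665), Cd24a (-0.14, adjusted p = 0.781), Mamdc2 (-0.15, adjusted p = 0.576) and Clec12a (-0.02, adjusted p = 0.966) did not pass the test in mock. Seen from mock, 54.7% of the 311 higher genes and 62.9% of the 232 lower genes had changed in the same direction at 24 h. Over all genes tested at 24 h, 13.5% were higher and 14.4% lower.

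**Figure D5:**
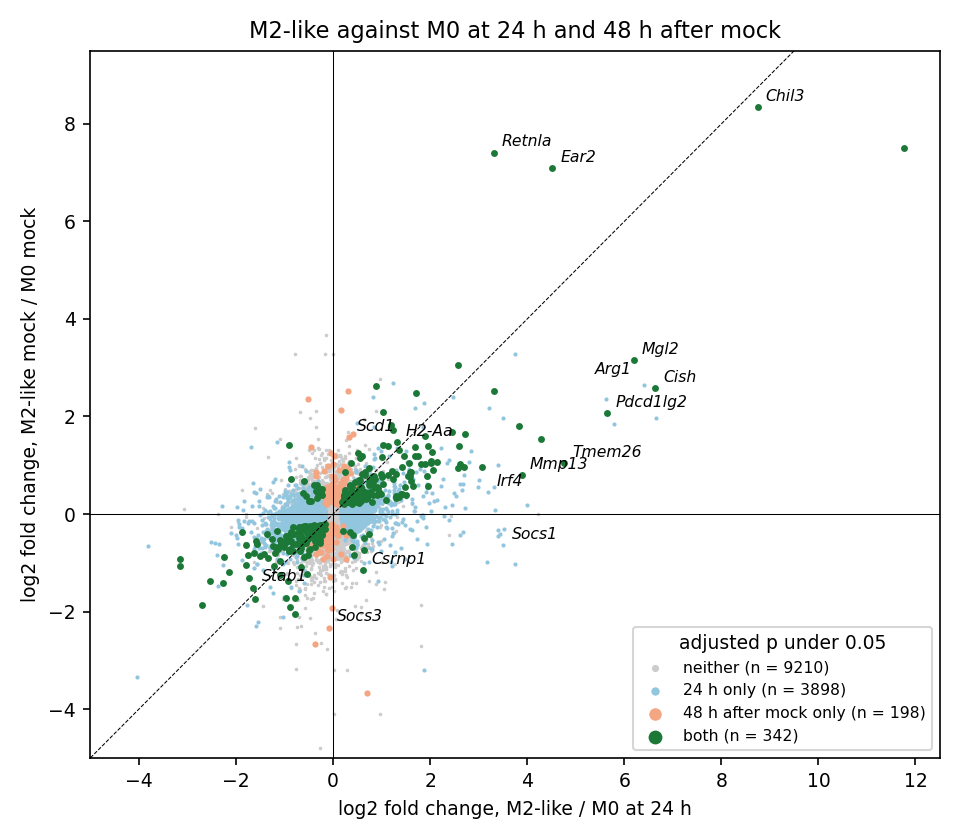
Log2 fold change of M2-like against M0 macrophages at 24 h (x axis) and 48 h after mock (y axis) for 13648 genes tested in both, coloured by which of the comparisons had an adjusted p-value under 0.05. Genes higher at 24 h had a median of 0.37 there and 0.08 in mock, and genes lower at 24 h -0.46 and -0.11. Both medians in mock lie nearer 0 than the dashed line of equal change. Chil3, Retnla and Ear2 lie highest among the genes labelled.

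A few genes had opposite directions in the 2 comparisons. Csrnp1 was higher in M2-like macrophages at 24 h (0.62 ± 0.09) and lower in mock (-1.15 ± 0.15, adjusted p of the difference = 1.77e-07), and so were Trib1, a scaffold of protein degradation (0.39 and -0.68, adjusted p = 0.000138), and Casp4 (0.43 and -0.85, adjusted p = 0.000386), the last not without M0 mock replicate 3. Ltc4s was lower at 24 h (-0.90 ± 0.24) and higher in mock (1.42 ± 0.40, adjusted p of the difference = 0.00142), at levels under 2 CPM.

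The untransfected macrophages of the same experiment differed in more genes. There, 1517 of 14172 genes were higher (10.7%) and 1303 lower (9.19%) in M2-like than in M0 macrophages. Of the 311 genes higher in mock, 181 were also higher in untransfected cells and 9 were lower, and of the 232 lower in mock, 96 were also lower and 15 higher. In the test of the difference between both comparisons, the M2-like against M0 log2 fold change was higher in mock for 341 genes (2.41%) and lower in mock for 461 (3.25%), and with the replicate number as a block for 502 and 678. For 765 of these 802 genes (95.4%), compared with 67.7% of all genes tested, mean CPM in M0 mock lay farther from untransfected M0 than mean CPM in M2-like mock lay from untransfected M2-like macrophages. Their median distance, as the absolute log2 ratio of mean CPM with 0.1 added, was 0.62 in M0 and 0.12 in M2-like macrophages, compared with 0.19 and 0.10 over all genes tested.

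Pf4 is an example. It was at 61.3, 49.5 and 54.7 CPM in untransfected M0 and 9.46, 10.7 and 12.9 CPM in M0 mock, while all M2-like libraries with and without reagent were between 22.2 and 30.2 CPM. Thus Pf4 was lower in M2-like than in M0 macrophages without transfection (-1.20) and higher after mock (1.25, difference 2.45, adjusted p = 8.31e-07). Mgll, which codes for a lipase of monoglycerides, had the opposite pattern, with 54.0, 54.4 and 47.3 CPM in untransfected M0, 258, 257 and 155 CPM in M0 mock and 209.7 to 307 CPM in the M2-like libraries. Its difference of 2.43 in untransfected cells was 0.16 in mock (adjusted p of the difference = 4.00e-09). The integrin genes Itgal (-2.41 and -0.59) and Itgb7 (-2.57 and -0.84) and the exporter gene Abca1 (2.20 and 0.60) also differed less in mock. For Chil3, M0 libraries were at 7.94 to 11.8 CPM without and 2.17 to 2.90 CPM with reagent, and M2-like libraries at 875 to 1007 and 687 to 950.1 CPM, so that the log2 fold change was larger in mock (8.34 and 6.60, adjusted p = 0.000531). Arg1 was at 13.8 to 72.2 CPM in untransfected M0 and did not differ there from M2-like macrophages by the test (-0.32). The alternative activation genes Mrc1, Mgl2, Flt1, Ptgs1, Cish and Pdcd1lg2 and the gene Lrrc32 had adjusted p-values of 0.287 or more in this test, which does not show that their differences were equal.

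The counts of called genes depended on single libraries. Without M0 mock replicate 2, 172 genes were higher and 111 lower, without M2-like mock replicate 1, 168 and 87, and without M2-like mock replicate 2, 152 and 95. A model of the 6 libraries alone called 78 higher and 33 lower genes.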

How the data were processed

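The deposited values are raw counts of reads per gene and library, which the authors made with Trimmomatic (trimming), TopHat2 (mapping to mm10) and featureCounts (counting) (versions, annotation, strand and multi-mapping settings are not given in the sources used here). Of 39179 gene identifiers, 37693 had a symbol in GENCODE M21. Groups were taken from the labels. The 2 technical replicates of each mouse at 24 h were summed.

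Low genes were removed by filterByExpr in edgeR (count of at least 10, total of at least 15). Counts were scaled with TMM and tested with edgeR's quasi-likelihood test, in 1 model over the 36 reprogramming libraries, 1 over the 9 summed samples at 24 h and 1 over both for differences between them. A gene was called at an adjusted p under 0.05. The standard error is the log2 fold change divided by the square root of F. R 4.3.3, edgeR 4.0.16, DESeq2 1.42.0, Python 3.11.15, SciPy 1.17.1, pandas 2.3.3, NumPy 2.4.6 and matplotlib 3.10.9 were used, and the tests were checked on simulated counts. In the 24 h experiment the numbers name mice, and the deviations of same-numbered M0 and M2-like samples from their group means correlated at 0.12 to 0.23. The main model at 24 h held no term for the mouse. With the mouse as a block, 2086 genes were higher and 2324 lower at 24 h.

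Named are all alternative activation genes, the 15 largest rises and falls in mock and the 10 at 24 h (mean CPM of the higher group at least 4 on the log2 scale, no overlap, a symbol without Gm or Rik), up to 5 called genes with the lowest p of each list, the study's regulators, and the 10 genes with the lowest p for the difference between mock and untransfected cells. Members of short lists (MHC class II, the IL-4 receptor pathway, lipid handling, scavenger receptors, matrix, immediate early, cell markers) that this leaves out were named after their values were seen. Called members of other lists that are not described in the Results include Nfatc1 (log2 fold change in mock -0.34), Nlrc5 (-0.36), Paics (0.21) and Amdhd2 (-0.42). The comparison, the gene lists and this rule were chosen with earlier results of these data known. Alternatives were DESeq2, RLE size factors, other filters, only the compared groups, a 2-fold threshold, the replicate block and leaving out each library. Counts of the MHC class II, inflammatory mediator and immediate early lists under these were added after seeing the data.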

Additional observations from a re-analysis of the deposited data

Results flagged for a closer look

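The log2 fold change of M2-like against M0 macrophages was tested for a difference between 48 h after mock and 24 h, and between mock and untransfected cells (edgeR's quasi-likelihood test, adjusted p-value under 0.05). The values are differences of log2 fold changes, mock minus the other comparison, for the genes named in the report. The comparisons with untransfected cells share the model of the reprogramming libraries, and those with 24 h also differ in experiment, sequencing facility and read length.

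The value in mock was above that at 24 h for Retnla (4.09), Ear2 (2.62), Ltc4s (2.31), Vsig8 (1.28), Scd1 (1.24), Adra1a (1.14), Cd14 (0.94), Gas6 (0.88), Mgll (0.83), Nlrp3 (0.74), Bex1 (0.59) and Trf (0.58). Among the largest falls at 24 h, it was also above for Cd24a (1.676), Mamdc2 (1.498), Sema4d (1.494), Clec12a (1.473), Cdkn1c (1.465), Fmnl1 (1.015) and Nav2 (0.93). It was below that at 24 h for Il31ra (-7.94), Cdh1 (-4.84), Socs1 (-4.16), Cish (-4.01), Arg1 (-3.79), Tmem26 (-3.74), Pdcd1lg2 (-3.60), Ccl22 (-3.27), Mmp13 (-3.11), Mgl2 (-3.05), Irf4 (-2.77) and Socs3 (-2.27). The same held for Slc7a2 (-2.13), Socs2 (-2.07), Flt1 (-2.04), Acod1 (-1.94), Clec10a (-1.90), Csrnp1 (-1.79), Ptgs1 (-1.76), Batf3 (-1.65), Klf4 (-1.50), Casp4 (-1.30), H2-DMb2 (-1.27) and Egr1 (-1.21). The same held for Fosl2 (-1.18), Trib1 (-1.09), Myc (-1.09), Mmp19 (-1.04), Tfrc (-0.99), Ksr2 (-0.94), Clec4a3 (-0.94), Ccl9 (-0.89), Ciita (-0.80), Mrc1 (-0.76), Tfec (-0.73) and Itgax (-0.68). The same held for Mmp12 (-0.59), Pparg (-0.53), Egr2 (-0.46) and Klf6 (-0.36).

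Compared with untransfected cells, the value in mock was higher for Pf4 (2.45), Ltc4s (1.83), Itgal (1.82), Ccr2 (1.79), Chil3 (1.74), Itgb7 (1.73), Siglecf (1.09), Il1rl2 (0.90), Fmnl1 (0.53) and Emilin2 (0.38). It was lower than in untransfected cells for Mgll (-2.27), Trib1 (-1.82), Scd1 (-1.75), Ksr2 (-1.70), Abca1 (-1.60), Csrnp1 (-1.42), Dusp1 (-1.28), Egr1 (-1.21), Mmp19 (-1.19), Vsig8 (-1.18), Nlrp3 (-0.98) and Casp4 (-0.89). The same held for Tfrc (-0.86), Trf (-0.83), Itgax (-0.81), Abcg1 (-0.80), Klf6 (-0.77), H2-Aa (-0.71), Clec7a (-0.70), Fosl2 (-0.69), Cd74 (-0.66), Slc11a2 (-0.64) and Stat3 (-0.40). It also held for Cdkn1c (-1.83), Mamdc2 (-0.56) and Sema4d (-0.44).

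Cdh1 and Il31ra were under the filter on low counts in the reprogramming experiment alone, so that their difference rests on few reads in mock. For Acod1, Casp4 and Socs3, M0 mock replicate 3 lay above the other M0 mock libraries. Causes of these differences were not tested.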

How the results depend on the processing

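DESeq2 and RLE size factors kept the direction of the 121 named genes tested and the call of all but Arg1, which passed with DESeq2, and Ppard, which failed with RLE. Of 92 named genes that passed the test, 42 did so under every setting run and 50 failed it under at least 1. No filter on low counts gave 413 lower genes in mock. A model of the compared groups alone gave 78 higher and 33 lower genes in mock, 213 and 282 that differed from untransfected cells, 391 lower in mock than at 24 h, 58 and 25 changed the same way at 24 h and in mock, and 1 lower alternative activation gene. At a log2 fold change of at least 1, 54 and 26 genes remained past the threshold in mock, 310 and 204 in untransfected cells, 84 and 128 for their difference, 290 and 272 at 24 h, 109 and 145 for mock against 24 h, 38 and 11 for the same way as at 24 h, and 8 and 0 alternative activation genes.

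Leaving out 1 library at a time, 152 to 351 genes were higher and 87 to 305 lower in mock, 862 to 1160 lower in untransfected cells, 1391 to 2270 higher at 24 h, 451 to 707 lower in mock than at 24 h, 100 to 192 higher and 55 to 165 lower both at 24 h and in mock, and 0 to 2 alternative activation genes lower. The genes that changed sign had not passed the test, with log2 fold changes over these fits in Clec10a (-0.21 to 0.27), Cd209a (-0.99 to 0.28), Ccl22 (-0.24 to 1.20), Ch25h (-0.96 to 0.13), Alox15 (-1.05 to 1.40), E2f1 (-0.0155 to 0.0571), Myc (-0.17 to 0.10), Mgll (-0.0439 to 0.28), Rfx5 (-0.11 to 0.0552) and H2-Ob (-0.71 to 0.20). Cd24a (-0.30 to 0.0535) and Clec12a (-0.15 to 0.13) changed sign too. The cause was not tested.

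With the replicate number as a block, 478 genes were higher and 422 lower in mock, and 239 genes lower at 24 h were lower in mock. Same-numbered M0 mock and M2-like mock libraries deviated from their group means with correlations of 0.21, 0.021 and 0.033, and M0 mock replicates 2 and 3 each correlated best with another number, so the numbers are not taken to pair these libraries. Same-numbered untransfected and mock M2-like libraries did deviate together (0.231 for each number, and -0.163 to -0.079 for different numbers), whereas those of M0 and M0 mock did not (-0.101, 0.033 and 0.037). For the difference between mock and untransfected cells the block gave 502 and 678 genes.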
